A study of Mus musculus with 336 samples.

Results

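Chemokines are small secreted proteins that guide leukocytes, and their genes were taken here as every symbol that starts with Ccl or Cxcl and a number, together with Cx3cl1, Xcl1, Pf4 and Ppbp. By this rule 42 of the 47582 gene symbols in the 3 expression tables were chemokines. A chemokine was tested in a table where its mean over all libraries of both genotypes and all times was 0.5 FPKM or more (a fragment level that is corrected for transcript length and for how many fragments a library had mapped). This minimum was reached by 18 chemokines in skin fibroblasts, 27 in cultured liver slices and 32 in a short liver time course. Of the 42 genes, 34 were tested in at least 1 table and 15 in all 3. The 8 below the minimum everywhere were Ccl1, Ccl19-ps1, Ccl19-ps3, Ccl20, Ccl21b, Ccl26, Ccl27b and Ccl28.

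The study measured poly(A) RNA from C57BL/6 wild-type (WT) and Bmal1-/- (KO) material, and the fibroblasts and slices of both genotypes had been exposed to 100 nM dexamethasone, a synthetic glucocorticoid, for 15 min. The short liver course carries the same protocol text, which does not name it separately. Bmal1 (symbol Arntl in the tables) encodes the partner of CLOCK in the core circadian transcription factor. Mouse skin fibroblasts (MSF) and ex vivo liver slices from adult mice were harvested every 3 h over 3 days, labelled CT00 to CT69, starting 48 h after dexamethasone. A short liver course had 3 numbered libraries per genotype at each of T00, T06, T12 and T24, and the labels do not say what T00 is counted from. The long courses give 1 value per time point and genotype. The labels name 3 wells or discs per time point and do not say whether these were pooled. The 24 WT and 24 KO values of a table are successive time points and were not taken as independent animals. Their p-values measure the spread of time points around the fitted course. The labels do not say whether the 3 numbered libraries of the short course came from separate animals, so their p-values measure the spread between these libraries. By the run names in the labels, WT and KO fibroblasts were in separate pools and lanes, and WT and KO slices were on separate lanes. In these 2 tables genotype, culture and pool or lane cannot be told apart.

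The targeted gene had RNA in both genotypes. Arntl had a median of 10.6 FPKM in WT fibroblasts (8.79 to 11.9) and 6.84 FPKM in KO fibroblasts (5.67 to 7.84). In the slices the medians were 4.32 FPKM in WT and 4.07 FPKM in KO, and in the short course 1.38 and 2.32 FPKM. The labels do not give the deleted part of the gene, so a level over the whole gene does not check the genotype labels. Depth relative to the median library of each table ran from 0.529 to 5.28 in fibroblasts, from 0.379 to 2.33 in slices and from 0.421 to 2.59 in the short course, and absolute depth is unknown. The 8 hepatocyte markers summed to 1186 to 24380 FPKM in WT slices, 1666 to 73890 FPKM in KO slices and 3.33 to 7.50 FPKM in fibroblasts. Of the 10 stellate cell and fibroblast markers, 7 were left in the fibroblast table after rows with a failing status were removed. These 7 summed to 1260 FPKM or more in every library there.

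Chemokines act through G protein-coupled receptors on the cells they attract. CXC chemokines with a glutamate-leucine-arginine motif, such as Cxcl1 and Cxcl2, draw neutrophils through CXCR2, while Cxcl9, Cxcl10 and Cxcl11 are interferon-inducible ligands of CXCR3 on T and NK cells. Ccl2 and its neighbours Ccl7 and Ccl12 draw monocytes through CCR2, and Cxcl12, made by stromal cells, retains leukocytes and progenitors through CXCR4. Many inflammatory chemokine genes are induced by NF-kB and repressed by glucocorticoids, and in liver Kupffer cells, stellate cells, endothelium and hepatocytes all contribute to them.

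Most inflammatory chemokine genes lie in clusters of related genes. On chromosome 5 of GRCm38, the build of the files, 7 members (Cxcl5, Ppbp, Pf4, Cxcl3, Cxcl15, Cxcl1 and Cxcl2) lay between 90759360 and 90905938, and Cxcl9, Cxcl10 and Cxcl11 lay between 92321347 and 92365485. On chromosome 11, Ccl2, Ccl7, Ccl11, Ccl12, Ccl8 and Ccl1 lay between 82035571 and 82305690. A further group of Ccl5, Ccl9, Ccl6, Ccl3 and Ccl4 lay between 83525778 and 83664683. Cxcl12 stood alone on chromosome 6, from 117168535 to 117181367. The library kit keeps strand, but the strand setting of the counting is not given in the sources used here. Reads of genes that overlap on opposite strands may therefore be mixed, which concerns Cxcl10 and Cxcl11 with Art3, Cxcl16 with Zmynd15, Ccl27a with Il11ra1, Ccl25 with Elavl1, Ccl2 with Gm17268, Ccl6 with E230016K23Rik, Cxcl17 with 4732471J01Rik, Xcl1 with Gm20743, and Ccl19 and Ccl21a with 4930578G10Rik. Ccl21a, Ccl27a and Ccl19 also have near-identical copies, so their levels are uncertain.

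Promoters of 5 members are printed because these genes mark the patterns described below: early and lasting induction in liver (Cxcl1, Cxcl2), the interferon-inducible ligands that were low in KO fibroblasts (Cxcl9, Cxcl10) and 1 of the 2 members that were called higher there (Cxcl12). Each runs from 250 bases before to 50 bases after the RefSeq start on GRCm38.p6, 5′ to 3′ on the strand of the gene. Capitals mark a match on either strand to 1 of 5 motif forms: GGANTTTCC (NF-kB), GAAANNGAA (interferon-stimulated element), CACGTG (the E-box bound by CLOCK and BMAL1), TGANTCA (AP-1) and ACANNNTGT (glucocorticoid receptor).
Cxcl1 (chr5:90890995-90891294, plus strand): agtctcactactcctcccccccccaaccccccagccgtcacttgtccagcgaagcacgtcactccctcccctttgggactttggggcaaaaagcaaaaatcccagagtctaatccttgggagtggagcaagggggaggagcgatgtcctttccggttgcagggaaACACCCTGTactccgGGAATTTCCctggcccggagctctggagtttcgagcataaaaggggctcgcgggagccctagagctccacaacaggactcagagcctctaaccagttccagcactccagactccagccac
Cxcl2 (chr5:90903649-90903948, plus strand): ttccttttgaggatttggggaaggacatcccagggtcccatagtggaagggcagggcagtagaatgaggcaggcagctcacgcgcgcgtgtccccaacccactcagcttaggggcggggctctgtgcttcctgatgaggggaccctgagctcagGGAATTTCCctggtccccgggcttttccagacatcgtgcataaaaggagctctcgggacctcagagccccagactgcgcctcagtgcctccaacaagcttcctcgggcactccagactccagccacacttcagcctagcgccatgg
Cxcl9 (chr5:92328030-92328329, minus strand): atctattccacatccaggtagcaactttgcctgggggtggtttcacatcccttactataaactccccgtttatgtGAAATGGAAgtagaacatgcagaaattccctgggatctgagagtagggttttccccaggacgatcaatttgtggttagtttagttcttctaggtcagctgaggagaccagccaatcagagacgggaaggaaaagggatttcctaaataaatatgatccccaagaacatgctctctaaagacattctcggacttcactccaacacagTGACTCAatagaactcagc
Cxcl10 (chr5:92348840-92349139, minus strand): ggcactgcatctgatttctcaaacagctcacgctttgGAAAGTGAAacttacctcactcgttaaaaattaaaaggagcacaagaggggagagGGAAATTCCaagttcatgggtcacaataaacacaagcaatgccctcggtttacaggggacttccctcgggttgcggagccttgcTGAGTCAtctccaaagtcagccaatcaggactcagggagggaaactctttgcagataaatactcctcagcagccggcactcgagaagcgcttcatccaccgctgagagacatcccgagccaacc
Cxcl12 (chr6:117168285-117168584, plus strand): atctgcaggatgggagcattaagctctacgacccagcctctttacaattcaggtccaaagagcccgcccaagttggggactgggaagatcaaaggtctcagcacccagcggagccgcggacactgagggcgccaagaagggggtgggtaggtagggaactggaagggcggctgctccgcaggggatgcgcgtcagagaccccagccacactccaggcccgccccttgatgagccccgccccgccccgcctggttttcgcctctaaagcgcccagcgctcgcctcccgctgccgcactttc

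RefSeq promoters of 24 tested members were matched by symbol, Ccl2 not among them. The NF-kB form stood in 4 of these 24, Cxcl1, Cxcl2, Cxcl3 and Cxcl10, and in 1.23% of all 27025 promoters of that length. Its first base lay at -70 from the start in Cxcl1, at -96 in Cxcl2 and at -158 in Cxcl10. The interferon-stimulated form stood in 5 members, Cxcl9 (at -175), Cxcl10 (at -213), Cxcl14, Ccl3 and Ccl19, and in 8.57% of all promoters. The AP-1 form was found in Cxcl9, Cxcl10, Ccl9 and Ppbp against 7.93% of all promoters, the E-box in Cxcl3 alone against 7.24%, and the glucocorticoid receptor form in Cxcl1 alone against 6.9%. The printed Cxcl12 window held none of the 5 forms. These matches describe letters and not bound sites.

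Skin fibroblasts without Bmal1 had a chemokine output that differed from that of WT fibroblasts in size and make-up. The interferon-inducible ligands, the monocyte attractants and Ccl5 were lower in KO, and Cxcl12 and Cxcl15 were higher. Of 18 chemokines tested, 13 were called, 2 higher and 11 lower in KO, by limma's moderated test on log2(FPKM + 1) with a Benjamini-Hochberg adjusted p under 0.05 and a difference of 1 or more. Over all 16889 genes tested, 5.8% were called higher and 9.2% lower. The median difference (KO minus WT, log2) was -1.49 over the chemokines and -0.02 over all genes. For the 13 called members and Cxcl16 the 24 WT and 24 KO libraries did not overlap, which makes 14 of 18, where 33.4% of all genes tested did not overlap. In bulk samples fewer cells of a type and less RNA per cell cannot be told apart.

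**Figure D1:**
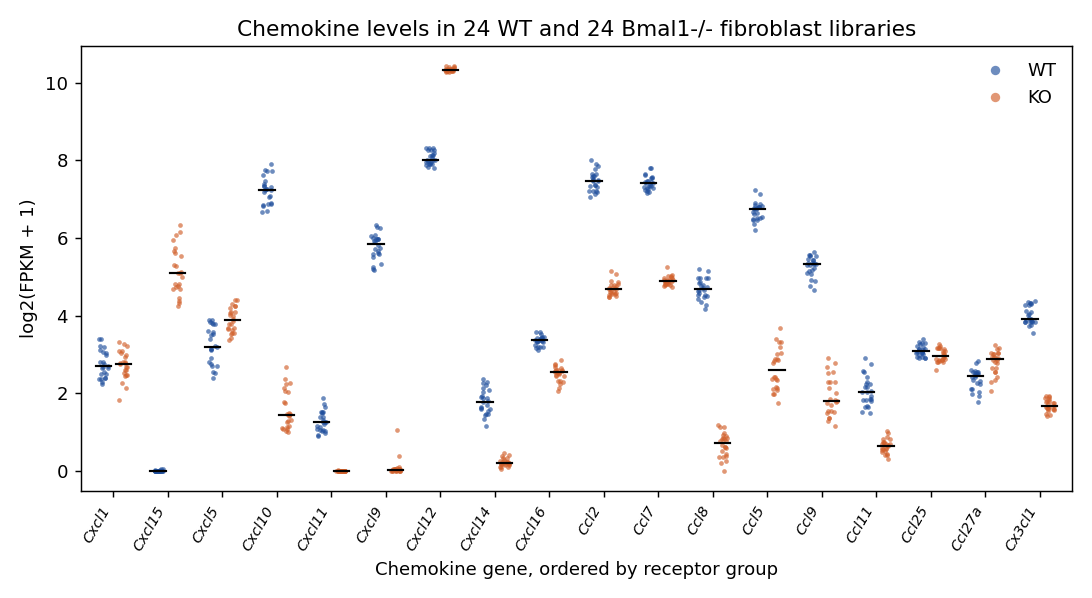
Level of the 18 chemokines tested in skin fibroblasts, as log2(FPKM + 1), ordered by receptor group. Each point is 1 library (24 WT in blue, 24 KO in orange, 1 per time point) and each bar a median. Cxcl12 lies above its WT range in every KO library and Cxcl9, Cxcl10, Ccl2, Ccl7, Ccl8 and Ccl5 below theirs, while the Cxcl1 ranges coincide.

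Cxcl12, the stromal ligand of CXCR4, ran from 224 FPKM over a median of 257 to 320.1 FPKM in WT and from 1242 over 1283 to 1372 FPKM in KO. Every KO library was higher than every WT library, and the ratio of means was 4.83. The log2 difference was 2.28 (SE 0.01, limma adjusted p = 1.5e-58). Its share of all chemokine FPKM was 25.4% in WT, followed by Ccl2 with 17.0% and Ccl7 with 16.3%. In KO it made up 89.9%, with Cxcl15 next at 2.65%. The summed chemokine level was 830.1 to 1346 FPKM in WT and 1361 to 1552 FPKM in KO.

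Cxcl15 (lungkine), a neutrophil attractant known mainly from lung epithelium, was listed at 0 in 19 of 24 WT libraries and reached at most 0.0341 FPKM there. In KO it ran from 17.9 over a median of 33.2 to 79.0 FPKM. No fold is given against a group listed mostly at 0, and the log2(FPKM + 1) difference was 5.16 (SE 0.03, limma adjusted p = 2.8e-59). Of its neighbours in the cluster, Ppbp, Pf4, Cxcl3 and Cxcl2 were below the minimum in fibroblasts. Cxcl1 had medians of 5.46 FPKM in WT and 5.75 FPKM in KO (difference -0.02, SE 0.06, limma adjusted p = 0.76). Cxcl5 had medians of 8.20 and 13.8 FPKM. Like Cxcl15, Cxcl5 was above its WT value at all 24 time points (limma adjusted p = 3.4e-23), but its difference of 0.65 was under the size limit.

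The ligands of CXCR3 stood farthest apart in the other direction. Cxcl10 ran from 101 over a median of 151 to 239 FPKM in WT and from 0.999 over 1.74 to 5.34 FPKM in KO. No KO library came near the lowest WT library, the ratio of means was 70.5, and the difference was -5.65 (SE 0.08, limma adjusted p = 6.7e-43). Cxcl9 ran from 35.4 over 56.9 to 80.3 FPKM in WT, while in KO 7 of 24 libraries were listed at 0 and the highest had 1.08 FPKM. Cxcl11 had a WT median of 1.38 FPKM and was listed at 0 in 22 of 24 KO libraries. It is annotated as a polymorphic pseudogene in this mouse annotation. The difference was -5.70 for Cxcl9 and -1.28 for Cxcl11, and the low WT level of Cxcl11 limits its difference on this scale.

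Genes beside and across this cluster were measured too. Art3, which overlaps Cxcl10 and Cxcl11 on the opposite strand, had a difference of -7.37 (SE 0.15), larger than that of either chemokine. Sdad1, before the cluster, had -0.97 and Nup54, after it, -0.93, both under the size limit. In which of the overlapping genes the reads arose was not tested.

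Of the monocyte attractants, Ccl2 ran from 131 over a median of 177 to 257 FPKM in WT and from 21.5 over 24.8 to 34.3 FPKM in KO. Ccl7, its neighbour, ran from 143 over 169 to 224 FPKM in WT and from 25.7 over 28.7 to 37.0 FPKM in KO. The ratio of WT to KO means was 7.12 for Ccl2 and 5.92 for Ccl7, with differences of -2.77 (SE 0.04) and -2.52 (SE 0.03). Ccl8, of the same cluster and listed here with them, had a WT range of 16.9 to 35.9 FPKM and a KO range of 0 to 1.28 FPKM (difference -4.03, SE 0.07). The limma adjusted p was 4.5e-45 for Ccl2, 4.1e-46 for Ccl7 and 5.3e-39 for Ccl8.

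Ccl5 and Ccl9 were also far lower in KO fibroblasts. Ccl5, which attracts T cells and monocytes, ran from 73.0 over 107 to 149.6 FPKM in WT and from 2.39 over 5.11 to 11.8 FPKM in KO (difference -4.06, SE 0.06). Ccl9, a CCR1 ligand, ran from 24.5 over 38.9 to 48.8 FPKM in WT and from 1.25 over 2.51 to 6.46 FPKM in KO (difference -3.33, SE 0.08). The ratio of means was 18.4 for Ccl5 and 12.5 for Ccl9, and neither gene's ranges overlap. Ccl3, Ccl4 and Ccl6 were below the minimum in fibroblasts.

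Among the remaining members, Cx3cl1, the membrane-bound fractalkine, had medians of 14.2 FPKM in WT and 2.16 FPKM in KO (difference -2.32, SE 0.04). The eotaxin Ccl11 had medians of 3.09 and 0.573 FPKM (difference -1.41), and Cxcl14, a chemokine of epithelia and fibroblasts, 2.45 and 0.151 FPKM (difference -1.57). Cxcl16, the ligand of CXCR6, had medians of 9.26 and 4.81 FPKM and a difference of -0.85, under the size limit. Ccl25 (7.44 and 6.82 FPKM) and Ccl27a (4.44 and 6.41 FPKM), which attract lymphocytes to gut and skin, overlapped between genotypes and were not called. Their differences of -0.12 and 0.43 were under the size limit (limma adjusted p = 0.011 and 4.3e-07).

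Other cell type markers also differed between the fibroblast lines. The 6 platelet and megakaryocyte markers summed to 11.9 to 17.3 FPKM in WT and 22.1 to 36.6 FPKM in KO, with 1 of 2 tested higher. The 8 endothelial markers summed to 67.5 to 75.8 FPKM in WT and 2.68 to 5.42 FPKM in KO, and the 2 of 3 tested that were called were lower. The 5 biliary markers, which include Spp1 and Sox9, summed to 614 to 927 FPKM in WT and 79.7 to 179.6 FPKM in KO. Of 3 biliary markers tested 1 was called in each direction. The 7 of 10 stellate cell and fibroblast markers left in this table summed to 1260 to 1829 FPKM in WT and 3064 to 4979 FPKM in KO. Of 4 tested, 1 was called in each direction. Keratinocyte markers summed to 9.11 to 15.0 FPKM in WT and 0.922 to 1.77 FPKM in KO, with 1 of 2 tested lower. The 12 macrophage markers summed to 0.838 to 2.35 FPKM in WT and 1.24 to 2.78 FPKM in KO, with C1qa, C1qb, C1qc and Marco listed at 0 in every library, and the 1 marker tested was not called. The part of these other markers in the chemokine differences was not tested.

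Genes of the pathways around the chemokines were read from fixed lists. Of 14 interferon regulators and stimulated genes, 10 were lower in KO and none higher. Irf7, the factor that amplifies type I interferon, had a WT median of 252 FPKM and a KO median of 51.1 FPKM (difference -2.25). Gbp2 (64.1 and 16.6 FPKM), Gbp3 (105 and 26.7 FPKM) and Oasl2 (342 and 124 FPKM) were the other 3 with the smallest p. Of 14 NF-kB subunits, feedback genes and inducing cytokines tested, 2 were lower, the growth factor Csf1 (332 and 110.0 FPKM) and the inhibitor Nfkbie (10.9 and 2.68 FPKM). None of 2 chemokine receptors, 2 atypical receptors and 8 glucocorticoid response genes tested was called at this size limit, although all 12 had an unadjusted p under 0.05 by limma.

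Chemokines in fibroblasts drifted over the 3 days. Between the 8 libraries of day 1 and the 8 of day 3, WT fibroblasts had 14 of 18 members called, 13 lower on day 3 and Ccl9 higher. The median difference was -0.42 over the chemokines and -0.00060 over all genes. Over all genes 13.9% were called lower and 11.7% higher by limma with 24 h terms in the model. In KO fibroblasts 10 of 18 were called, 8 lower, with Cxcl16 and Ccl2 higher, where 11.7% of all genes were lower and 13.3% higher. These differences were small beside those between genotypes: with a size limit of 1, only 1 member in WT (Cxcl5) and 2 in KO (Cxcl15 and Ccl5) were called. With a pseudocount of 0.1 and no size limit, the WT day calls of Ccl8, Ccl9 and Cxcl9 were lost (limma adjusted p = 0.33, 0.076 and 0.097). Cxcl9 was then called in KO (-0.89, adjusted p = 0.0064).

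Cxcl5 in WT fell from 12.6 ± 1.29 FPKM on day 1 to 5.38 ± 0.732 FPKM on day 3 (SD, 8 libraries each), a difference of -1.10 (SE 0.06). Cxcl15 in KO fell from 59.0 ± 12.1 to 22.5 ± 3.50 FPKM (difference -1.34, SE 0.06), and the 2 days' libraries did not overlap. Ccl5 in KO fell from 8.42 ± 1.81 to 3.50 ± 0.668 FPKM (difference -1.06, SE 0.11). Cxcl12 moved from 305 ± 15.0 to 236 ± 7.41 FPKM in WT and from 1331 ± 36.5 to 1270 ± 19.5 FPKM in KO. The KO call of Cxcl12 (-0.067) was lost with no filter on low values (limma adjusted p = 0.070). It was also lost without CT00, CT03, CT06, CT09, CT15, CT48, CT51, CT57, CT60 or CT66 (0.050 to 0.081).

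The day change itself differed between genotypes for 13 of 18 members by the interaction term, where 23.7% of all genes did. Ccl8, Ccl11, Cxcl14 and Cxcl11 were at or below 1.28 FPKM in every KO library, and Cxcl15 at or below 0.0341 FPKM in every WT library. For these genes the interaction term is close to the change of the other genotype alone. Ccl2 fell in WT, from 211 ± 27.8 to 149 ± 13.2 FPKM, and rose in KO, from 22.5 ± 0.963 to 28.2 ± 3.93 FPKM (interaction 0.80, SE 0.10, limma adjusted p = 3.1e-08). Ccl9 did the opposite, from 31.3 ± 4.92 to 39.4 ± 4.39 FPKM in WT and from 4.88 ± 0.984 to 2.12 ± 0.648 FPKM in KO (interaction -1.25, SE 0.15, adjusted p = 3.1e-08). The rise of Ccl9 in WT was lost when CT06, CT09 or CT51 was left out (0.29 to 0.30, adjusted p = 0.052 to 0.054).

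A 24 h rhythm was called for none of the 18 chemokines in WT fibroblasts, where 1 had an unadjusted p under 0.05, and for none in KO, where 2 did. Over all genes limma called 0.0237% in WT and 0% in KO. The rhythm differed between genotypes for 0.00592% of genes and for no chemokine, with 2 at an unadjusted p under 0.05. With day as a factor in place of a linear trend, Cxcl15 was called in KO with an amplitude of 0.23 (adjusted p = 0.034).

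In liver slices Ccl6 and Pf4 had the largest shares of chemokine FPKM in both genotypes and were lower in KO. Of 27 members tested 16 were called, all lower in KO, while 3.59% of all 16483 genes were called lower and 1.05% higher. The median difference was -1.10 over the chemokines and -0.31 over all genes. The WT and KO ranges overlapped for every member, as for nearly all genes tested in slices, of which 2.07% did not overlap. After rescaling of the libraries, which moved the median of all genes by 0.31, 12 remained called, without Ccl4, Cxcl1, Cxcl12 and Cxcl17 (-0.79, -0.71, -0.73 and -0.85).

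**Figure D2:**
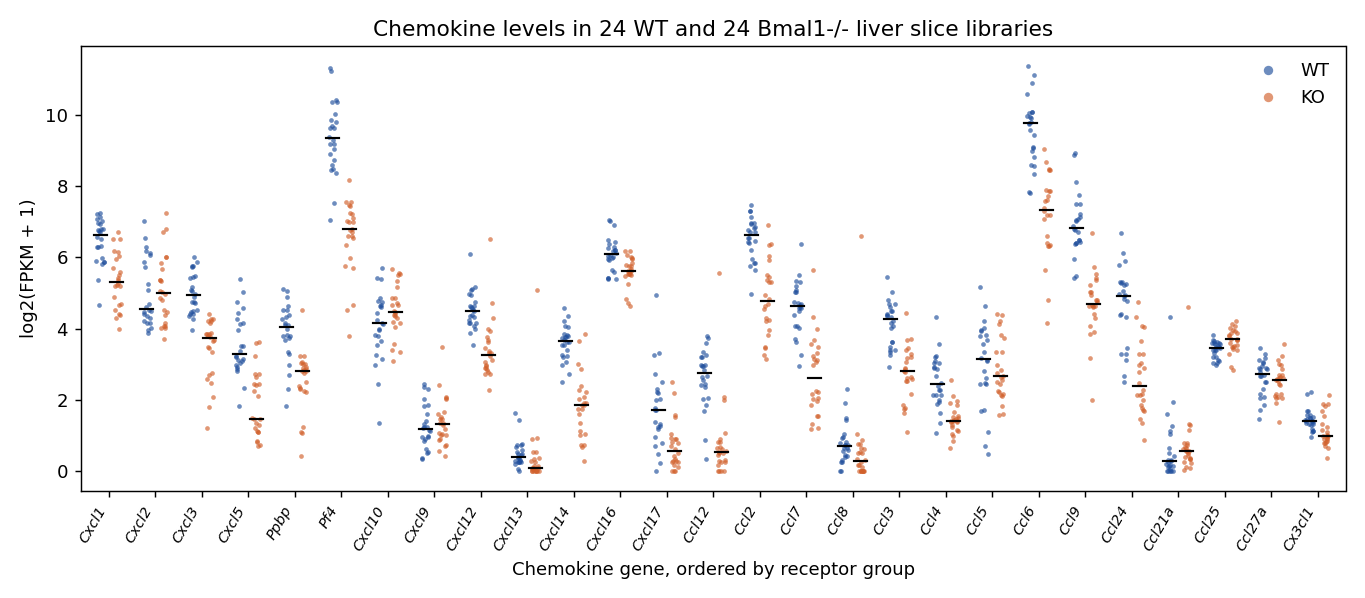
Level of the 27 chemokines tested in liver slices, as log2(FPKM + 1), ordered by receptor group. Each point is 1 library (24 WT in blue, 24 KO in orange) and each bar a median. Ccl6, Pf4 and Ccl9 have the highest WT medians, the KO points of these 3 lie mostly below the WT points, and single KO points of Ccl8, Ccl12, Cxcl13 and Ccl21a stand far above the rest.

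Ccl6, a CCR1 ligand made by macrophages, ran from 224 over a median of 873 to 2662 FPKM in WT and from 16.9 over 162 to 533 FPKM in KO. Pf4, platelet factor 4, which Kupffer cells and megakaryocytes both express, ran from 131 over 653 to 2582 FPKM in WT and from 12.9 over 110.3 to 289 FPKM in KO. KO was lower at 22 of 24 time points for each gene. The differences were -2.38 (SE 0.24, limma adjusted p = 1.5e-11) for Ccl6 and -2.80 (SE 0.24, adjusted p = 3.2e-13) for Pf4. Together Ccl6 and Pf4 held the first and the second place among chemokine FPKM in WT (37.8% and 34.0%) and in KO (30.1% and 18.1%).

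Ccl9, the neighbour of Ccl6, ran from 41.7 over 114 to 488 FPKM in WT and from 2.97 over 25.1 to 101 FPKM in KO (difference -2.27, SE 0.20). Ccl24, an eotaxin made by alternatively activated macrophages, ran from 4.66 over 29.5 to 102 FPKM in WT and from 0.819 over 4.20 to 26.1 FPKM in KO (difference -2.04, SE 0.23). Both were lower in KO at 23 of 24 time points, with adjusted p = 5.9e-13 and 3.5e-10 by limma. Ccl3 (medians 18.4 and 5.95 FPKM, difference -1.39) and Ccl4 (4.41 and 1.64 FPKM, difference -1.08), which macrophages secrete, were lower too. Ccl4 lost its call without CT66, where its difference fell below the size limit. Ccl5 had medians of 7.90 and 5.32 FPKM and was lower in KO at 12 of 24 time points (difference -0.14, SE 0.22, adjusted p = 0.58).

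The 12 macrophage and Kupffer cell markers moved with some of these genes. They summed to 219 to 5828 FPKM in WT slices, with a median of 1073, and to 77.4 to 536 FPKM in KO slices, with a median of 184. Of 11 markers tested 10 were called lower in KO and none higher. Across the 24 WT libraries the marker sum and the chemokine level, both on the log2 scale, had a Pearson correlation of 0.94 for Ccl6, 0.90 for Pf4, 0.89 for Ccl9, 0.85 for Ccl3 and 0.78 for Ccl24. Across the 24 KO libraries it was 0.76 for Ccl6, 0.88 for Ccl24, 0.66 for Ccl9 and 0.49 for Pf4. The KO value of Ccl3 is not given here. These values describe libraries that share normalization and time order. Cxcl1 (-0.75) and Ccl5 (-0.73) ran the other way in WT. Of 10 stellate cell and fibroblast markers 5 were lower in KO, with sums of 110.1 to 583 FPKM in WT and 22.4 to 1254 FPKM in KO, while none of 8 endothelial and 3 neutrophil markers tested was called (7 and 3 at an unadjusted p under 0.05 by limma). The part of these cells in the chemokine differences was not tested.

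**Figure D3:**
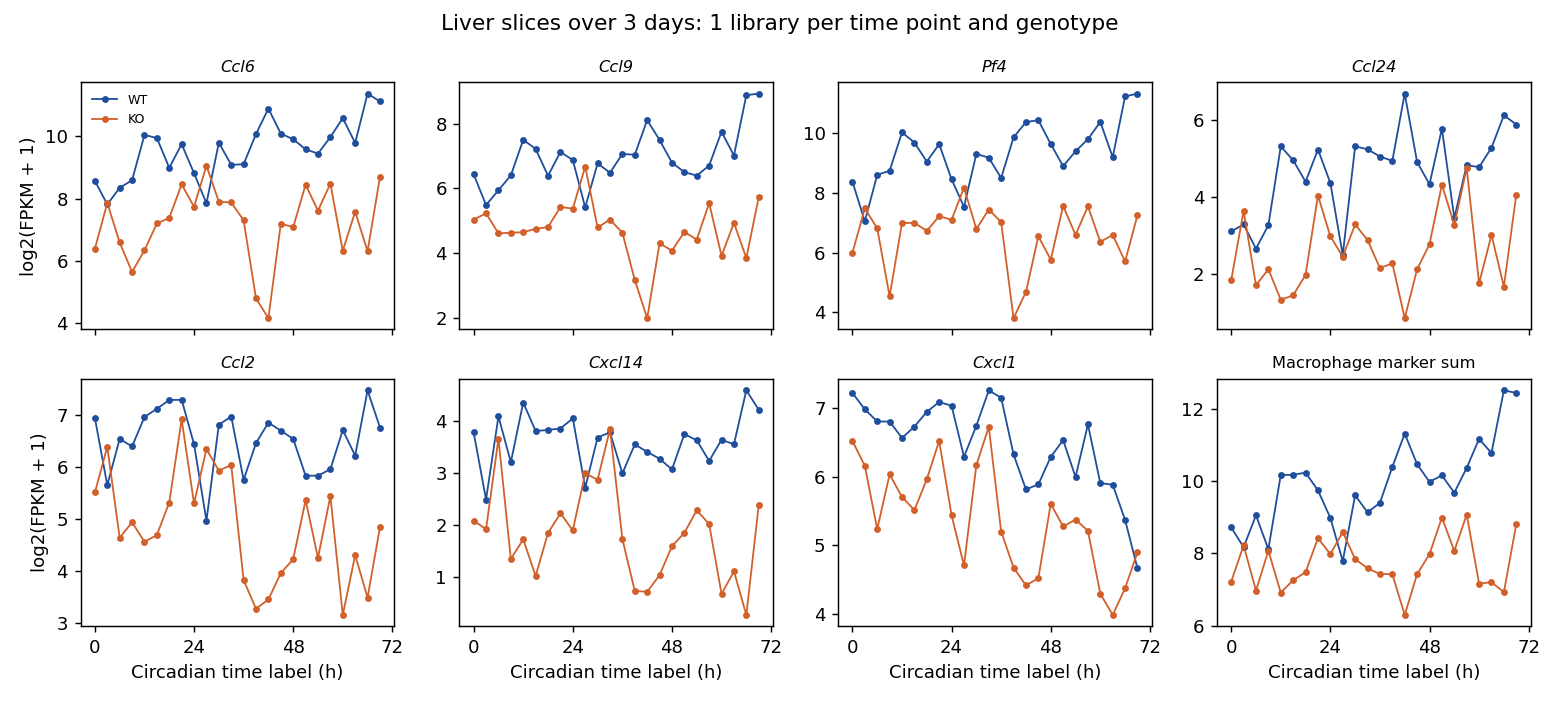
Time course of 7 chemokines and of the summed macrophage and Kupffer cell markers in liver slices, as log2(FPKM + 1) against the circadian time label in hours, 1 library per point (WT blue, KO orange). The vertical axes differ between panels and do not start at 0. Ccl6, Ccl9, Pf4 and the marker sum rise and fall together in WT, and KO CT27 is above WT CT27 for Ccl6, Ccl9, Pf4 and Ccl2.

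The monocyte attractants Ccl2, Ccl7 and Ccl12 were lower in KO slices. Ccl2 ran from 30.3 over 97.8 to 178 FPKM in WT and from 7.87 over 26.3 to 120.2 FPKM in KO, lower at 22 of 24 time points (difference -1.68, SE 0.19). Ccl7 had medians of 24.1 and 5.30 FPKM (difference -1.88) and Ccl12 medians of 5.73 and 0.442 FPKM (difference -1.83), with 4 of 24 KO libraries of Ccl12 listed at 0. Ccl8 had medians of 0.614 and 0.213 FPKM and was not called (difference -0.17).

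Among the neutrophil attractants, 4 of 5 tested were lower in KO. Cxcl1 ran from 24.3 over 99.3 to 152 FPKM in WT and from 14.8 over 39.1 to 105 FPKM in KO, lower at 23 of 24 time points (difference -1.11, SE 0.14). Cxcl3 had medians of 29.5 and 12.3 FPKM and was lower in KO at all 24 time points (difference -1.59, SE 0.21). Cxcl5 (medians 8.85 and 1.78 FPKM) had a difference of -1.70, and Ppbp, the precursor of platelet basic protein (15.6 and 6.07 FPKM), of -1.36. Cxcl2, the nearest neighbour of Cxcl1, was the exception, with medians of 22.7 and 31.0 FPKM and a difference of 0.09 (SE 0.20, limma adjusted p = 0.71).

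Cxcl12 went the opposite way to the fibroblasts, with a WT range of 10.7 to 67.5 FPKM, a KO range of 3.86 to 91.5 FPKM and medians of 21.8 and 8.66 FPKM (difference -1.10, SE 0.18). The slice calls of Cxcl12 (-0.72) and Ccl4 (-0.77) fell below the size limit without day 3, and those of Cxcl1 (-0.99) and Cxcl17 (-0.84) without day 2. Cxcl14 ran from 4.62 over 11.6 to 23.0 FPKM in WT and from 0.210 over 2.61 to 13.3 FPKM in KO (difference -1.78, SE 0.17). Cxcl17, a mucosal chemokine, had medians of 2.29 and 0.483 FPKM (difference -1.05), and its call was lost without CT24, CT36, CT45 or CT51. The interferon-inducible ligands were not called: Cxcl10 had medians of 16.7 and 21.3 FPKM (difference 0.46, SE 0.23, adjusted p = 0.066) and Cxcl9 of 1.28 and 1.502 FPKM (difference 0.13, adjusted p = 0.42). Cxcl16 (67.4 and 48.3 FPKM), Cx3cl1 (1.66 and 0.977 FPKM) and Ccl25 (10.02 and 11.98 FPKM) differed by less than the size limit. Cxcl13, Ccl21a and Ccl27a had differences of -0.08, 0.10 and -0.11.

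Single slice libraries stood apart. In KO CT27, Ccl8 was at 95.8 FPKM, Ccl12 at 46.5, Cxcl13 at 33.2, Ccl21a at 23.6 and Cxcl12 at 91.5 FPKM. The next highest KO libraries had 1.05, 3.20, 0.909, 1.48 and 25.1 FPKM. In the same library the stellate cell and fibroblast markers summed to 1254 FPKM against a KO median of 52.3, and the mesothelial markers to 52.9 FPKM against 10.1. In WT CT06 Ccl21a reached 19.3 FPKM with mesothelial markers at 76.2 FPKM, and in WT CT36 Cxcl17 reached 29.7 FPKM with biliary markers at 5985 FPKM. The highest macrophage sums were in WT CT66 (5828 FPKM) and CT69 (5540 FPKM), where hepatocyte markers were at 2996 and 1186 FPKM. Without KO CT27, an alternative chosen after seeing the data, 16 members were called.

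In the slices 2 of 4 chemokine receptors tested were lower in KO, Ccr1, the receptor of Ccl6 and Ccl9 (medians 6.22 and 1.84 FPKM, difference -1.46), and Cxcr4, the receptor of Cxcl12 (15.8 and 5.20 FPKM, difference -1.43). None of 4 atypical receptors was called, with 1 at an unadjusted p under 0.05 by limma. Of 18 genes of the NF-kB list tested 3 were lower, the adhesion molecules Icam1 (16.9 and 6.90 FPKM) and Vcam1 (13.3 and 2.01 FPKM) and Csf1 (26.5 and 13.3 FPKM). None of 14 interferon genes was called, with 9 at an unadjusted p under 0.05, and none of 8 glucocorticoid response genes, with 5. Wfdc17, next to the cluster of Ccl5, Ccl9 and Ccl6, had a difference of -2.01 (SE 0.20), close to those of Ccl9 and Ccl6.

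Over the 3 days in culture the neutrophil attractants Cxcl1, Cxcl2 and Cxcl5 and the T cell attractant Cxcl9 fell in slices of both genotypes. The Cxcl9 call in KO was lost in 6 of 24 refits without 1 time point (CT00, CT09, CT51, CT57, CT63 or CT69; -0.87 to -0.62, adjusted p = 0.050 to 0.079), with no filter on low values (adjusted p = 0.053) and without the 6 libraries that correlated least with the others (0.051), and the Cxcl1 call in WT without those 6 libraries (0.084). In WT 7 of 27 members were called between day 1 and day 3, where 6.01% of all genes were lower and 5.07% higher by limma. Cxcl2, Ccl5, Cxcl5, Cxcl9 and Cxcl1 fell, and Ccl3 and Ccl4 rose. In KO 5 of 27 fell, Ccl7, Cxcl5, Cxcl2, Cxcl1 and Cxcl9, and none rose, where 4.72% of genes fell and 2.89% rose. The change over days differed between genotypes for none of the 27 members, with 5 at an unadjusted p under 0.05, and for 0.0425% of all genes.

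Cxcl2 fell from 64.8 ± 17.5 to 17.3 ± 2.78 FPKM in WT (SD, 8 libraries each; difference -1.81, SE 0.34) and from 60.9 ± 39.5 to 22.4 ± 9.62 FPKM in KO (difference -1.31, SE 0.34). Cxcl1 fell from 119 ± 17.4 to 65.03 ± 26.7 FPKM in WT and from 63.8 ± 19.9 to 30.5 ± 11.8 FPKM in KO. Ccl7 fell in KO from 11.2 ± 4.05 to 2.53 ± 0.869 FPKM (difference -1.77, SE 0.34), and the libraries of the 2 days did not overlap. Ccl4 rose in WT from 3.14 ± 1.17 to 8.44 ± 4.77 FPKM (difference 1.11, SE 0.24), and 10 of 11 macrophage markers tested rose there too. Ccl3 rose from 13.5 ± 6.01 to 24.9 ± 9.02 FPKM, a call that was lost in 16 of 24 refits without 1 time point. The Ccl3 call was also lost with a pseudocount of 0.1 (limma adjusted p = 0.080), no filter on low values (0.085) and rescaling (0.053). The same held without the 6 libraries that correlated least with the others (0.066) and with no 24 h terms (0.089). Of the NF-kB list, Csf3 (-1.22), Il6 (-1.54) and Nfkb2 (-0.52) fell in WT.

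A 24 h rhythm was called for none of the 27 members in WT slices, although 12 had an unadjusted p under 0.05, and for Cxcl14 in KO, while limma called 1.38% of all genes in WT and 9.8% in KO. Cxcl14 in KO had an amplitude of 0.80 (log2, SE 0.20) with a peak at 4.86 h (adjusted p = 0.036). Its call was lost without KO CT27 (adjusted p = 0.069) and in 10 of 24 refits without 1 time point.

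The rhythm differed between genotypes for 5 members, Ccl24, Ccl6, Ccl9, Cxcl14 and Ccl2, and for 3.19% of all genes. The fitted peaks in WT lay at 16.6 h for Ccl24, 16.7 h for Ccl6 and 17.3 h for Ccl9, with amplitudes of 0.74, 0.61 and 0.70. In KO they lay at 3.51, 3.11 and 3.55 h, with amplitudes of 0.83, 0.92 and 0.55. Of 11 macrophage markers 8 differed in the same way by the same test, and the part of those cells was not tested. These 5 calls were unstable: 1 remained without KO CT27, 1 without day 1, 0 without day 2 or day 3, and 0 without CT15, CT27, CT42, CT54 or CT66.

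The short liver course had the largest changes over time. From T00 to the later times most chemokines rose in both genotypes, Cxcl2, Ccl2, Cxcl1 and Cxcl3 by 6.00 or more on the log2 scale, and Cxcl12 and Ccl27a fell. In WT 25 of 32 members were called, 23 up and 2 down, where 30.8% of all 14303 genes were up and 30.2% down by limma. In KO 24 of 32 were called, 22 up and 2 down, where 33.6% were up and 35.3% down. The direction is that of the largest change against T00. The median largest change was 2.02 in WT and 2.04 in KO over the chemokines, and 0 and -0.08 over all genes. The summed chemokine level was 202 to 214 FPKM in WT and 133 to 181 FPKM in KO at T00, and 2162 to 4042 FPKM and 1854 to 2155 FPKM at T24.

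**Figure D4:**
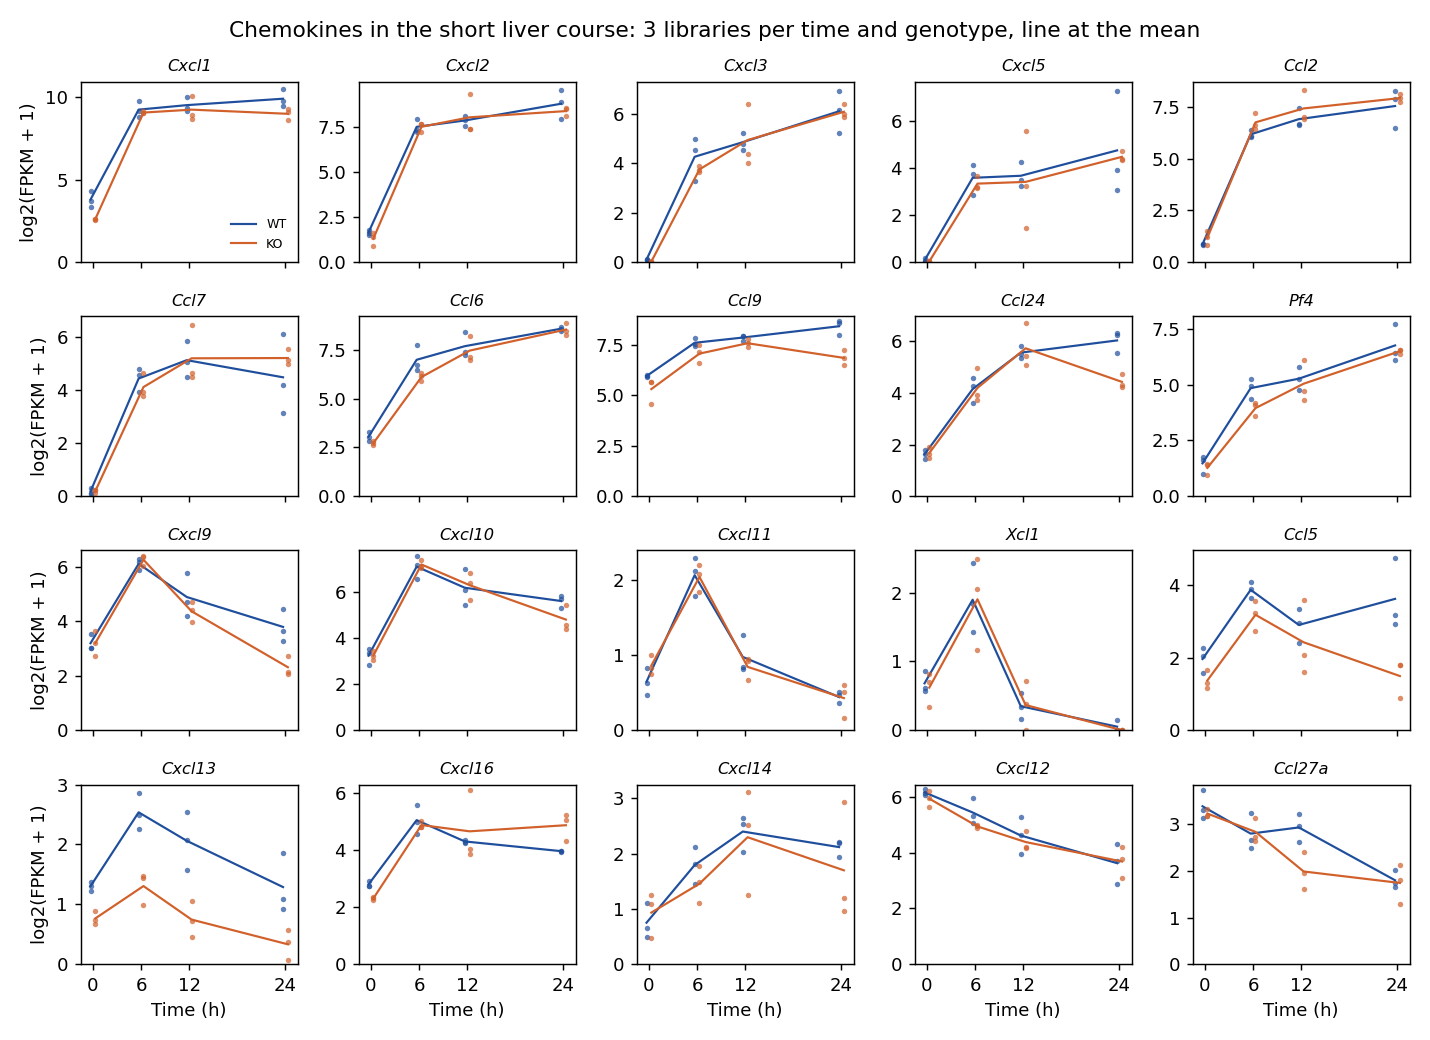
Level of 20 chemokines in the short liver course, as log2(FPKM + 1) against time in hours, with 1 point per library (3 per time and genotype) and a line at the mean (WT blue, KO orange). Cxcl1, Cxcl2, Cxcl3 and Ccl2 stay high to T24, Cxcl9, Cxcl10, Cxcl11 and Xcl1 peak at T06 and decline, Cxcl12 and Ccl27a fall, and the KO points of Cxcl13 lie below the WT points at every time.

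Among the neutrophil attractants Cxcl2 had the largest change of all members. Cxcl2 stood at 2.50, 2.02 and 1.88 FPKM in the 3 WT libraries at T00, at 163, 246 and 151 FPKM at T06, at 189, 278 and 239.9 FPKM at T12 and at 243, 753 and 480.1 FPKM at T24. In KO it stood at 1.63, 0.868 and 2.04, then 202, 201 and 149, then 170.4, 649 and 165, then 277, 365 and 372 FPKM. No later library came near the level of T00, and the changes against T00 reached 7.16 in WT and 7.09 in KO (limma adjusted p = 8.3e-10 and 4.5e-10).

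Cxcl1 stood at 19.3, 11.8 and 9.24 FPKM at T00 in WT and at 448, 896 and 568 FPKM at T06, and in KO at 4.98, 5.11 and 5.23 and at 519.8, 582 and 520.4 FPKM. It was the most abundant chemokine from T06 on, with 26.6% to 39.3% of the chemokine FPKM in each group. Cxcl3 and Cxcl5 rose by up to 6.00 and 4.68 in WT and 6.06 and 4.45 in KO. Ppbp rose by up to 3.06 in WT and 2.54 in KO. The KO call of Ppbp was lost without KO replicate 1 or KO replicate 3 (limma adjusted p = 0.088 and 0.11). WT T24 replicate 2 held most of the T24 mean of Cxcl5 (154 FPKM beside 7.27 and 14.1) and of Ppbp, whose other T24 values were 5.22 and 5.63 FPKM.

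Of the 4 genes listed as monocyte attractants, Ccl2 and Ccl7 rose in both genotypes, Ccl12 was called in WT only, and Ccl8 in neither. Ccl2 stood at 0.837, 0.841 and 0.773 FPKM in WT at T00 and at 68.2, 82.0 and 66.5 FPKM at T06, and reached 88.1, 312 and 240.1 FPKM at T24. In KO it went from 0.752, 1.29 and 1.88 over 97.8, 149 and 86.7 to 243, 283 and 215 FPKM. The largest change was 6.70 in WT and 6.77 in KO, highest at T24 in both. Ccl7 rose by 4.95 in WT and 5.02 in KO, with the highest means at T12 and T24 values of 7.76, 68.9 and 17.2 FPKM in WT. Ccl12 was called in WT, with 15.7 FPKM in WT T24 replicate 2 beside 0.493 and 0.485 FPKM, and lost its call without WT replicate 2 or without any 1 of the KO replicates. Ccl8 at 10.9 FPKM in that library was not called. In the same library the stellate cell and fibroblast markers summed to 370.3 FPKM, against 65.4 and 101 in the other WT libraries at T24.

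Ccl6, Pf4 and Ccl3 rose to their highest means at T24 in both genotypes. Ccl6 stood at 8.92, 6.02 and 7.09 FPKM in WT at T00, at 215, 88.4 and 107 FPKM at T06 and at 413, 359 and 385 FPKM at T24. In KO it stood at 6.10, 5.55 and 5.14, at 70.4, 58.0 and 77.5 and at 479.8, 359 and 302 FPKM. Pf4 went from 1.01, 2.38 and 2.12 FPKM to 68.4, 209 and 85.0 FPKM in WT, and from 1.71, 0.941 and 1.65 to 92.2, 82.6 and 93.1 FPKM in KO. The changes at T24 were 5.55 and 5.83 for Ccl6 and 5.29 and 5.23 for Pf4. Ccl24, Ccl3 and Ccl4 rose in both genotypes too, by up to 4.42, 4.08 and 2.14 in WT.

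Markers of macrophages were measured beside them. The 12 markers summed to 173.5 to 227 FPKM at T00 and 238 to 415 FPKM at T24 in WT, and to 148 to 166 FPKM and 188 to 201 FPKM in KO. Of the 12, 6 rose and 4 fell in each genotype. Neutrophil markers summed to 3.69 to 74.1 FPKM over the WT libraries and 2.53 to 32.9 FPKM over the KO libraries, with 1 of 5 tested called in each genotype. The median sum of the biliary markers went from 38.5 FPKM at T00 to 348 FPKM at T06 in WT and from 39.8 to 350.4 FPKM in KO, and that of the endothelial markers from 125 to 263 FPKM and from 96.1 to 233 FPKM. The part of these cells in the chemokine changes was not tested.

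The interferon-inducible ligands peaked early. Cxcl10 stood at 6.25, 9.20 and 10.45 FPKM in WT at T00, at 94.7, 191 and 145 FPKM at T06 and at 51.6, 38.7 and 56.3 FPKM at T24. In KO it stood at 10.0, 7.35 and 8.30, at 142, 168 and 134 and at 23.0, 20.2 and 42.8 FPKM. Cxcl9 rose from a mean of 8.27 ± 1.93 to 68.4 ± 9.54 FPKM at T06 in WT and from 8.49 ± 2.96 to 76.0 ± 10.2 FPKM in KO (SD, n = 3). At T24 its KO libraries (3.36, 3.22 and 5.63 FPKM) were all below the KO libraries of T00, while the WT libraries (20.9, 11.5 and 8.67 FPKM) overlapped those of T00 (7.17, 10.49 and 7.15 FPKM). Cxcl11 rose by 1.42 in WT and 1.18 in KO at T06. Cx3cl1 rose by up to 1.39 and 1.35, Cxcl16 by up to 2.26 and 2.58, and Cxcl14 in WT by up to 1.65, a call lost without any 1 of the WT replicates.

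Xcl1, lymphotactin, made by T and NK cells, had means of 0.609 ± 0.174 FPKM at T00 and 2.88 ± 1.37 FPKM at T06 in WT and was listed at 0 in 2 WT and 3 KO libraries at T24. The 8 T and NK cell markers moved alongside, with median sums of 5.58, 8.06, 1.74 and 0.519 FPKM at T00, T06, T12 and T24 in WT and of 3.58, 4.94, 0.732 and 0.556 FPKM in KO, and their part in the course of Xcl1 was not tested. With a pseudocount of 0.1 the largest change of Xcl1 was the fall to T24 (-2.44 in WT and -2.61 in KO). Cxcl13, the B cell attractant, was highest at T06 as well (4.89 ± 1.26 FPKM in WT and 1.499 ± 0.437 FPKM in KO). Its KO call was lost without any 1 of the KO replicates (limma adjusted p = 0.075 to 0.12). With a pseudocount of 0.1 the largest change of Cxcl13 in KO was a fall of -1.31. Ccl5 peaked at T06 with 15.9, 11.7 and 13.8 FPKM in WT and 10.97, 8.45 and 5.70 FPKM in KO, although WT T24 replicate 2 had 26.3 FPKM. The Ccl5 call was lost in WT without WT replicate 1 (limma adjusted p = 0.090) and in KO without KO replicate 1 (0.067).

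Of the called members, 7 were highest at T06, 3 at T12 and 13 at T24 in WT, and 7, 8 and 7 in KO. These counts rest partly on single libraries: without WT T24 replicate 2 they were 9, 4 and 10 in WT, and without KO T12 replicate 2 they were 9, 3 and 10 in KO. The fallers were Cxcl12 and Ccl27a. Cxcl12 stood at 66.3, 76.1 and 69.4 FPKM in WT at T00 and at 6.26, 18.7 and 12.1 FPKM at T24, and in KO at 48.4, 72.3 and 61.9 and at 12.7, 7.45 and 17.3 FPKM. The change was -2.54 in WT and -2.25 in KO, and at T00 Cxcl12 was the most abundant chemokine of both genotypes (34.2% and 37.9%). Ccl27a went from 9.62 ± 2.36 to 2.50 ± 0.493 FPKM in WT and from 8.39 ± 0.585 to 2.44 ± 0.956 FPKM in KO.

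The change over time differed between genotypes for none of the 32 members by limma, with 4 at an unadjusted p under 0.05 (Ccl24, Cxcl9, Ccl9 and Ccl27a), and for 1.71% of all genes. The 7 members not called over time in WT were Ccl8, Ccl11, Ccl17, Ccl19, Ccl21a, Ccl22 and Ccl25. Of these Ccl19 was called in KO, with a largest change of 1.39 at T12, where replicate 2 had 7.63 FPKM beside 0.323 and 1.10 FPKM. That call was lost without any 1 of the WT replicates or without KO replicate 3 (adjusted p = 0.056 to 0.115), and Ccl19 was called in WT without KO T12 replicate 2 (1.05, adjusted p = 0.00033). In the limma test of the genotype difference in the change over time, Ccl24 had the smallest p of the members (adjusted p = 0.14). Its T24 values were 74.6, 46.4 and 78.5 FPKM in WT and 17.9, 25.8 and 18.9 FPKM in KO. Without KO replicate 1, Ccl9 was called in this test. Without KO T12 replicate 2 alone, 2 members were called, Ccl24 (-1.66, adjusted p = 0.045) and Cxcl16 (1.40, adjusted p = 0.023).

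Over all 4 times together, 4 of 32 members were lower in KO and none higher, where 10.1% of genes were lower and 7.43% higher by limma. The median difference was -0.28 over the chemokines and -0.0022 over all genes. Cxcl13 was lower in KO at every time, with T00 values of 1.34, 1.47 and 1.60 FPKM in WT against 0.585, 0.858 and 0.668 FPKM in KO and no overlap between genotypes within a time. Its difference was -1.01 (SE 0.13, adjusted p = 1.7e-05). Ccl9 stood at 62.4, 57.9 and 61.0 FPKM at T00 and 379, 248 and 412 FPKM at T24 in WT, and at 22.7, 49.8 and 49.3 and at 147, 112 and 89.1 FPKM in KO (difference -0.76, SE 0.14, adjusted p = 0.00086). Ccl5 (-0.97, SE 0.24, adjusted p = 0.0075) and Cxcl1 (-0.64, SE 0.18, adjusted p = 0.020) completed the 4. The Cxcl1 call was lost without WT replicate 2, KO replicate 1 or KO replicate 3 (limma adjusted p = 0.13, 0.067 and 0.099). The Ccl5 call was lost without KO replicate 3 (adjusted p = 0.082).

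With 1 mean per genotype and number, 3 against 3, only Cxcl13 remained called, and Ccl9 had an adjusted p of 0.051. Without KO replicate 3 there were 2 calls. Without KO T12 replicate 2 alone there were 7, with Ccl24 (-0.46), Ccl6 (-0.47) and Pf4 (-0.53) added at adjusted p = 0.040 to 0.050. Of 12 macrophage markers 5 were lower in KO, and their sums ran from 173.5 to 480.7 FPKM in WT and from 148 to 365 FPKM in KO. Their part in the 4 differences was not tested. KO T12 replicate 2, the shallowest library of this table at 0.421 of the median depth, held the highest KO value of 15 of the 32 members, among them Cxcl16 (68.4 FPKM), Ccl24 (104 FPKM) and Ccl2 (322 FPKM). WT T24 replicate 2 held the highest WT value of 16.

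All 19 genes of the NF-kB list rose in both genotypes of the short course, among them the inhibitor Nfkbia from a mean of 28.5 to 296 FPKM at T06 in WT and from 16.2 to 247 FPKM in KO. Tnfaip3, another inhibitor, went from 1.32 to 42.9 and from 1.47 to 46.7 FPKM, and the cytokine Csf3 from 0.0392 to 47.5 and from 0.0299 to 49.8 FPKM. All 14 interferon genes were called, 8 up and 6 down in WT and 7 and 7 in KO: Irf1 went from 10.4 to 51.1 FPKM at T06 in WT. Of 8 glucocorticoid response genes 5 rose and 1 fell in each genotype, with Per1, Zfp36 and Dusp1 among those that rose in both.

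Receptors rose as well, 3 of 4 tested in WT and 4 of 4 in KO. Cxcr4 went from a mean of 1.48 to 7.59 FPKM at T06 in WT and from 0.631 to 4.13 FPKM in KO, while its ligand Cxcl12 fell. Ccr7, the receptor of Ccl19 and Ccl21a, went from 0.553 to 5.14 and from 0.216 to 2.47 FPKM. All 4 atypical receptors tested, which take up chemokines without G protein signalling or present them, rose in both genotypes. Ackr1 went from 0.892 to 25.8 FPKM at T06 in WT and from 0.738 to 20.9 FPKM in KO.

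**Figure D5:**
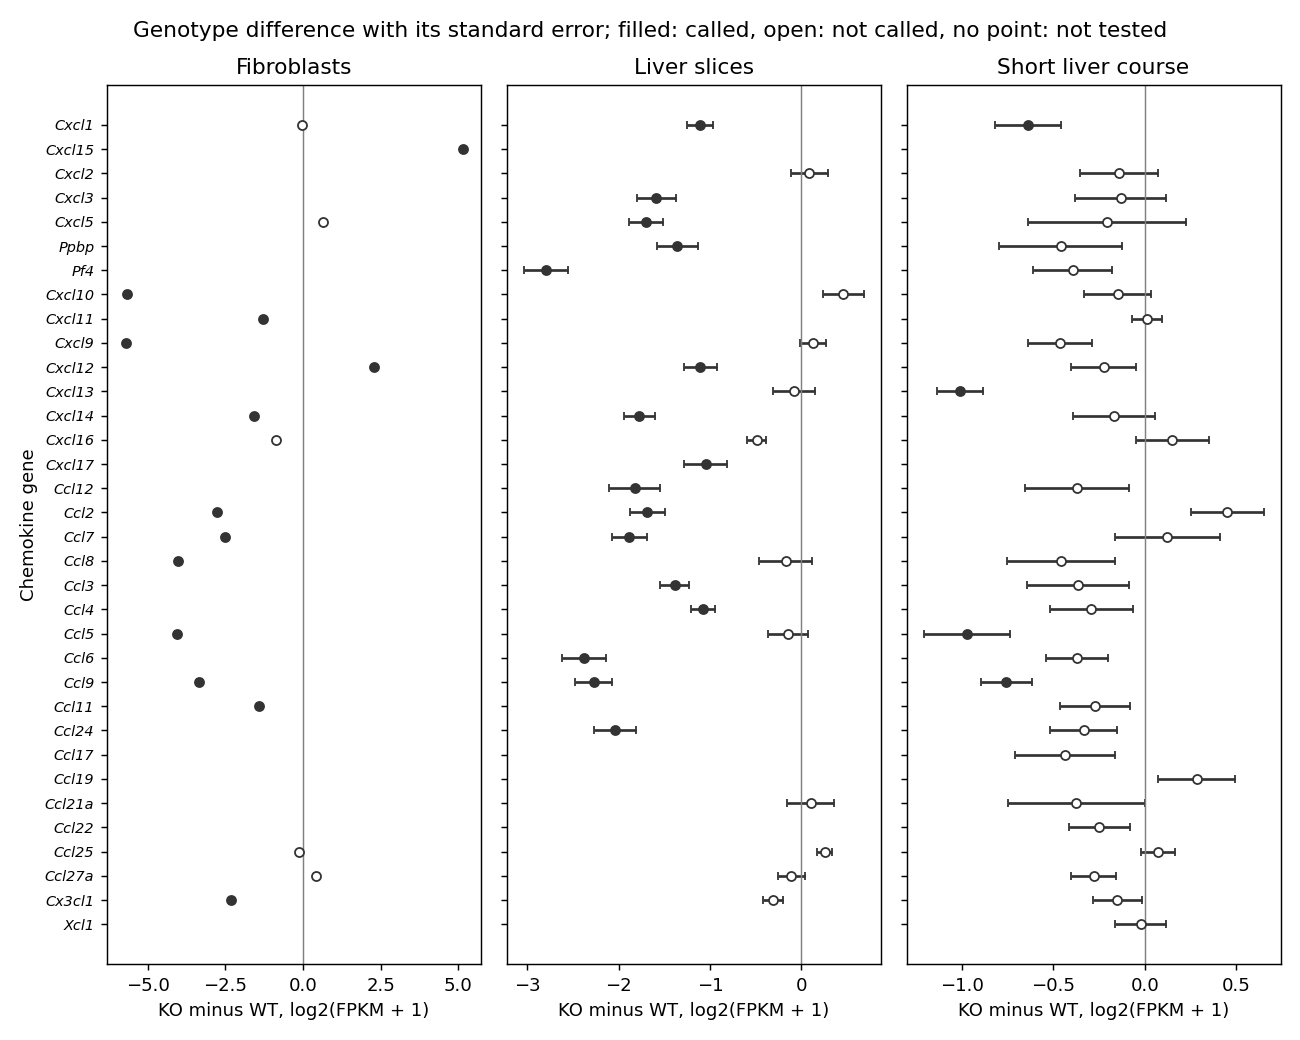
Genotype difference (KO minus WT, log2(FPKM + 1)) of each chemokine in fibroblasts, liver slices and the short liver course, with its standard error. Filled points were called, open points were not, and a missing point was not tested. A size limit of 1 applied to the calls in fibroblasts and slices only. The horizontal scales differ. Ccl9 is filled and negative in all 3 panels, and Cxcl12 is filled on opposite sides in fibroblasts and slices, where its call was lost after rescaling and without day 3.

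Set side by side, the 3 tables, which share no libraries, were compared by their genotype calls. A call needed a difference of 1 or more in fibroblasts and slices, but no set size in the short course. The short course differences of Ccl9, Ccl5 and Cxcl1 given below were under 1. Ccl9 was called lower in KO in all 3 (-3.33 in fibroblasts, -2.27 in slices and -0.76 in the short course). Of the 15 members tested in both fibroblasts and slices, 5 were called in both: Ccl2, Ccl7, Ccl9 and Cxcl14 lower in KO in each, and Cxcl12 higher in fibroblasts and lower in slices. These 5 are 5 of the 10 called in fibroblasts and 5 of the 7 called in slices among those 15. Of all genes tested in both, 1.13% were called in both, 8.35% of those called in fibroblasts and 34.3% of those called in slices. The slice call of Cxcl12 was lost after rescaling and without day 3. Fibroblasts and the short course shared 2 calls of 17 members tested in both, Ccl5 and Ccl9, where 2.94% of all genes were shared (21.5% of those called in fibroblasts and 17.7% of those called in the short course). Slices and the short course shared 2 of 26, Ccl9 and Cxcl1, where 1.5% of all genes were shared (28.3% of those called in slices and 8.55% of those called in the short course). Ccl5 was lower in fibroblasts (-4.06) and in the short course (-0.97) and not called in slices (-0.14). Its short course call was lost without KO replicate 3. Cxcl1 was lower in slices (-1.11) and in the short course (-0.64), and its levels in fibroblasts were -0.02 apart. The slice call of Cxcl1 was lost after rescaling and without day 2. Its short course call was lost without WT replicate 2, KO replicate 1 or KO replicate 3. Cxcl10, with -5.65 in fibroblasts, had 0.46 in slices and -0.15 in the short course, called in neither. Ccl2 had 0.45 in the short course (adjusted p = 0.13). Whether the differences themselves differ between tables was not tested, since the tables were normalized separately.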

How the data were processed

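The authors deposited 3 tables of FPKM values per gene, for fibroblasts, liver slices and the short liver course; TopHat2 2.1.0, Cuffdiff and the build GRCm38 are named in the submitters' processing notes. The annotation release is not given in the sources used here. Runs of 1 library share 1 column, and 1 further sample column was not used. In the fibroblast table, 118 of 47633 rows had a status of FAIL or HIDATA in at least 1 library and were removed. None of them was a chemokine. Where rows shared a symbol the row of highest mean was kept.

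Values were analysed as log2(FPKM + 1) for genes with a mean of 0.5 FPKM or more, by the moderated tests of limma (version 3.58.1, run under R 4.3.3, with a mean-variance trend), and p-values were adjusted by Benjamini-Hochberg over all genes tested of a table (threshold 0.05). The long courses were fitted with 24 h cosine and sine terms and a linear trend per genotype, or with day as a factor for changes over days, and the short course with genotype by time means. A size limit of 1 applied to genotype levels of the long courses only. The fits were tested on simulated data. Tables were handled with pandas 2.3.3 and numpy 2.4.6 and plotted with matplotlib 3.10.9. Chemokines with a mean of 0.5 FPKM or more were named in each table, with up to 4 genes by smallest p among those called in each pathway list and genes overlapping or flanking a cluster; a gene that this rule would name is not reported here. The members and lists were chosen with earlier results of these data known. Alternatives were a pseudocount of 0.1, no filter, median-of-ratios rescaling, other model terms, no trend, size limits, blocks and left-out libraries or days.

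Depth per sample is known only relative to the other libraries of a table, so no counting interval is given. In the short course, same-numbered WT and KO libraries of a time did not deviate together (12 correlations, -0.111 to 0.0833), so the numbers were not taken as pairs.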

Additional observations from a re-analysis of the deposited data

Results flagged for a closer look

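The results listed here are those in which the same change was tested in WT and KO and the test of the difference itself passed. In fibroblasts the change from day 1 to day 3 differed between genotypes (KO minus WT, log2) for Cxcl15 by -1.349, for Ccl9 by -1.247 and for Ccl5 by -0.7134. Of these Ccl5 fell in both genotypes, Ccl9 rose in WT and fell in KO, and Cxcl15 was listed at 0 in 19 of 24 WT libraries. It differed for Ccl11 by 0.8539, Ccl2 by 0.7954, Cxcl14 by 0.5907, Ccl8 by 0.5341, Cxcl5 by 0.4244, Cxcl16 by 0.4163, Ccl7 by 0.3667, Cxcl11 by 0.3608, Cxcl12 by 0.2992 and Cx3cl1 by 0.2341. The terms of Cxcl15, Cxcl11, Cxcl14, Ccl8 and Ccl11 are close to the change of 1 genotype, since the other genotype stood low on this scale. With a pseudocount of 0.1 the calls of Ccl8, Cxcl14 and Cx3cl1 were lost (limma adjusted p = 0.44, 0.14 and 0.27). Ccl8 was also lost with no filter (0.057) and in 7 of 24 refits without 1 time point (CT12, CT15, CT18, CT21, CT63, CT66 or CT69), and Cx3cl1 after rescaling (0.060) and in 6 (CT03, CT09, CT12, CT18, CT48 or CT69). Such differences were called for 23.7% of all genes in that table.

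In liver slices the 24 h rhythm differed between genotypes for Ccl24 with an amplitude of the difference of 1.553, for Ccl6 with 1.494, for Ccl9 with 1.217, for Ccl2 with 1.186 and for Cxcl14 with 1.019. The fitted WT peaks of these 5 genes lay between 16.6 and 17.35 h and the KO peaks between 2.731 and 4.857 h, but of the 10 single-genotype rhythms only that of Cxcl14 in KO was called.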

How the results depend on the processing

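One library per time point, a genotype confounded with pool and lane, and unknown absolute depth limit the long courses, and low levels limit Xcl1, Ccl12 and Cxcl13. Leaving out each time point or replicate in turn, 40 of 443 member results changed their call or sign in at least 1 refit. Counts of called members ranged from 13 to 13 for the fibroblast level, 13 to 14, 9 to 10 and 11 to 14 for its day changes (WT, KO and by genotype), and 0 to 0 for its rhythms. In slices they were 15 to 16 for the level, 6 to 9, 4 to 6 and 0 to 0 for day changes, and 0 to 3, 0 to 3 and 0 to 6 for rhythms (WT, KO and by genotype). In the short course they were 2 to 4 for the level (2 without KO replicate 3), 23 to 25 and 21 to 24 for time in WT and KO, and 0 to 1 for the interaction (1 without KO replicate 1).

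A size limit of 1 left 1, 2 and 2 fibroblast day changes. With day as a factor, Cxcl15 alone made 1 rhythm in KO fibroblasts and 1 by genotype, and slices had 8 rhythms in WT and 3 in KO. The WT slice count was 1 without day 2 and 1 with no trend term. The KO slice count was 0 with no filter, without the 6 slice libraries that correlated least with the others, without day 2, without day 3 and without KO CT27, and 3 without day 1. The count by genotype was 1 with no filter, 0 without those 6 libraries, 1 without day 1, 0 without day 2, 0 without day 3 and 1 without KO CT27, an alternative chosen after seeing the data, against 7 with day as a factor and 6 with no trend term. The short course level count was 1 with 1 mean per genotype and number. Without KO T12 replicate 2, also chosen after seeing the data, the level count was 7 and the interaction count 2. The largest change reversed with a pseudocount of 0.1 for Xcl1 (-2.435 in WT, -2.613 in KO) and Cxcl13 in KO (-1.311), and without KO replicate 3 for Cxcl13 in KO (-0.5622, against 0.6435 without KO replicate 1). The cause was not tested. With the replicate block the short course counts were 4, 26, 24 and 0 (level, WT time, KO time, interaction); within a genotype, 1 of 18 same-number correlations in WT and 4 of 18 in KO were over 0.1.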
